A study of Mus musculus with 2 samples.

Results

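Cell barcodes with a high share of mitochondrial transcripts were examined in fetal mouse germ cells: every barcode with 10% or more of its unique molecular identifiers (UMIs, one per captured RNA molecule) from the 13 protein-coding genes of the mitochondrial genome, at any depth. They were chosen by this measured share, so that the share, and the depth it rests on, are a description and not a result. The E12.5 library held 55 such barcodes among 2847 (1.93%) and the E13.5 library 131 among 2992 (4.38%), 186 of 5839 in all. They were compared with the barcodes of the same library that had 500 or more detected genes and a mitochondrial share under 10%, called reference barcodes here, which numbered 2621 and 2670. The study profiled male germ cells of CD1 mouse fetuses of stages E12.5 and E13.5 (days of embryonic development) with droplet-based 10x v2 single-cell RNA sequencing, after flow sorting for Oct4GFP, a fluorescent reporter named after the germ cell and pluripotency gene Oct4 (Pou5f1). Its title concerns apoptosis in the fetal testis. Each stage is 1 library, and the labels give neither the number of fetuses nor whether they were pooled. Cells of 1 library are not replicates, so no p-values are given, and every interval is a 95% exact conditional binomial (Clopper-Pearson) interval that covers counting error only.

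Mitochondrial transcripts lie inside the organelle, behind its double membrane, and can stay in a cell whose plasma membrane leaks while cytosolic messenger RNA is lost. Nuclear RNA is held by the nucleus, and messenger RNA for secreted and membrane proteins is translated on ribosomes bound to the endoplasmic reticulum (ER), whereas most other messenger RNA is translated on free ribosomes in the cytosol. Barcodes with a high mitochondrial share are therefore commonly removed from single-cell data as damaged or dying cells, although a high share can also belong to an intact cell rich in mitochondria.

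The 2 libraries held 60383440 UMIs at E12.5 and 59842242 at E13.5, of which the high-mitochondrial barcodes held 0.329% and 0.830%. Their own non-mitochondrial UMIs summed to 140476 and 329754, and the deepest barcode supplied 9.15% and 7.77% of these sums. Between the libraries, 24 barcode sequences were shared; 2 of them were high-mitochondrial barcodes at E13.5 and none at E12.5. No high-mitochondrial barcode was deeper than the 90th percentile of the reference barcodes.

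The median high-mitochondrial barcode had 1.02 times as many mitochondrial UMIs as the median reference barcode at E12.5 and 1.21 times at E13.5. It had far fewer of all others. Mitochondrial UMIs per barcode ranged from 49 to 3147 at E12.5 with a median of 922, against a reference median of 900. At E13.5 the medians were 1228 and 1012. Non-mitochondrial UMIs had a median of 1838 at E12.5 against 22252 in the reference barcodes, 12.1-fold lower. At E13.5 the medians were 1097 and 20535.5, 18.7-fold lower. Detected genes had medians of 1210 against 4496 at E12.5, and of 792 against 4323.5 at E13.5. All 55 high-mitochondrial barcodes at E12.5 and 128 of 131 at E13.5 had fewer non-mitochondrial UMIs than the 10th percentile of the reference barcodes. By contrast, 26 and 75 had mitochondrial UMI numbers between the reference's 10th and 90th percentiles, 13 and 22 lay below that range and 16 and 34 above it. The libraries also held 171 and 191 barcodes with under 500 genes and a mitochondrial share under 10%; those had a median of 5 mitochondrial UMIs in each library.

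**Figure D1:**
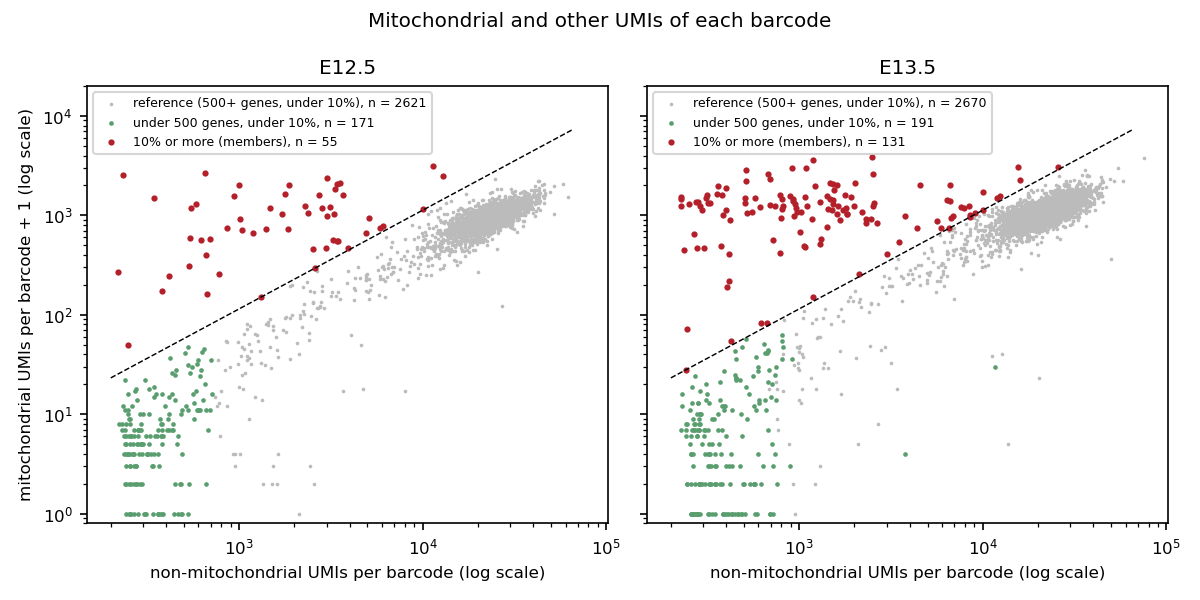
Mitochondrial UMIs plus 1 (vertical axis) against non-mitochondrial UMIs (horizontal axis) of each barcode, both on log scales, at E12.5 (left) and E13.5 (right); each point is 1 barcode and the dashed line marks a mitochondrial share of 10%. The 55 and 131 high-mitochondrial barcodes (red) spread around the height of the reference barcodes (grey), some above and some below, but far to their left. The 171 and 191 barcodes with under 500 genes and under 10% (green) are mostly low on both axes.

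The mitochondrial share itself had a median of 35.3% at E12.5 (10.1% to 91.6%) and 49.5% at E13.5 (10.1% to 87.0%). The threshold fell in a continuous range of shares. Just inside it, at 10 to 11%, were 4 and 9 barcodes, whose medians were 3260.5 and 8498 non-mitochondrial UMIs. Just outside it, at 9 to 10%, were 5 and 16 barcodes, with medians of 2644 and 7566.5.

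Within the mitochondrial RNA, the transcripts kept nearly the same proportions as in the reference barcodes, with a few departures that went the same way in both libraries. mt-Nd1, which encodes a subunit of complex I, made up 9.77% of mitochondrial UMIs against 7.71% in the reference barcodes at E12.5, a ratio of 1.27 (1.23 to 1.30). At E13.5 its ratio was 1.23 (1.22 to 1.25). Barcodes with a mitochondrial share of 10 to 20% had no such excess, at 1.009 (0.941 to 1.081) and 1.005 (0.965 to 1.046). Those with 20 to 50% were at 1.287 and 1.212, and those with 50 to 100% at 1.402 and 1.313. The excess was not particular to high-mitochondrial barcodes. Barcodes with under 500 genes and a share under 10% were at 1.48 (1.26 to 1.73) and 1.34 (1.16 to 1.54). mt-Cytb, the complex III cytochrome b, had ratios of 1.09 (1.06 to 1.12) and 1.10 (1.09 to 1.12). mt-Atp6, a subunit of ATP synthase, was near 1, at 1.02 (1.0 to 1.04) and 1.04 (1.03 to 1.05). mt-Co1, the catalytic subunit of cytochrome c oxidase, was lower, at 0.85 (0.83 to 0.87) and 0.79 (0.78 to 0.80). mt-Atp8, which shares a transcript with mt-Atp6, was the lowest, at 0.58 (0.39 to 0.82) and 0.44 (0.34 to 0.56), from only 32 and 63 UMIs. Reads of mt-Atp8 and mt-Atp6 overlap, so the split between them depends on the counting.

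**Figure D2:**
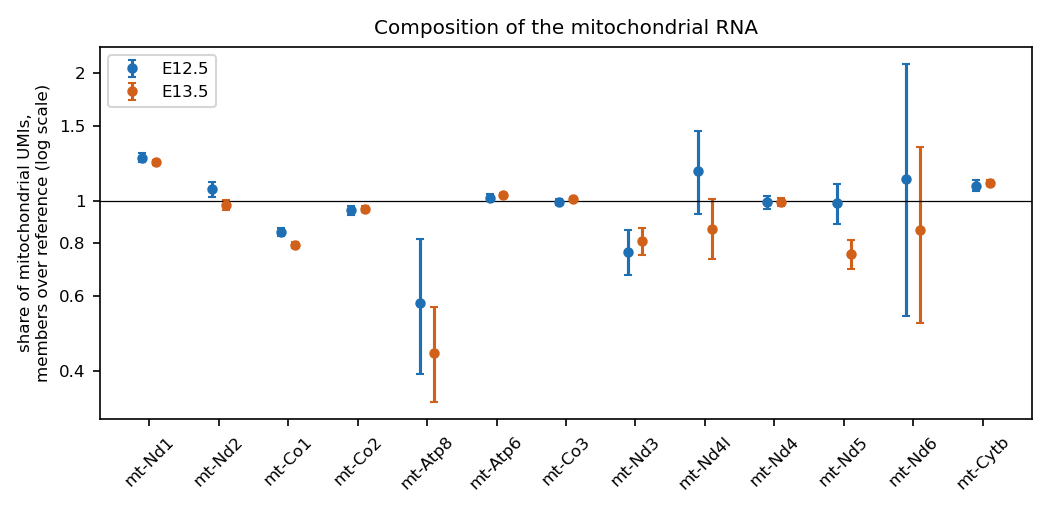
Share of each of the 13 mitochondrial genes among mitochondrial UMIs, in high-mitochondrial over reference barcodes (log scale), in genome order, at E12.5 (blue) and E13.5 (orange); bars are 95% counting intervals. mt-Nd1 lies above 1 and mt-Co1, mt-Atp8 and mt-Nd3 below 1 in both libraries.

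All remaining comparisons rest on non-mitochondrial UMIs. A gene's ratio is its share of these UMIs in the high-mitochondrial barcodes over its share in the reference barcodes, so that a ratio of 1 means lost in step with the average. A gene was entered where its reference level predicted at least 30 UMIs in the high-mitochondrial barcodes, which let 699 genes in at E12.5 and 1644 at E13.5. At E12.5, 27 genes were at least 1.5-fold higher, which is 3.86% of those entered, and 167 were at least 1.5-fold lower, which is 23.9%. At E13.5, 146 were higher (8.88%) and 141 lower (8.58%). The median log2 ratio over all entered genes was -0.31 in the first library and -0.12 in the second. Of the 695 genes entered in both libraries, 572 (82.3%) had ratios on the same side of 1. Higher in both were 18 genes, which is 66.7% of the E12.5 list and 60.0% of the E13.5 list among these genes, and lower in both were 40, which is 24.0% and 63.5%. The rank correlation of the log2 ratios was 0.63 across these genes, which are not independent replicates. Because the median moved with the normalization, a list is best read against the median of all genes: scaling with TMM factors (trimmed mean of M-values, as implemented in edgeR) shifted every log2 ratio by -0.64 at E12.5 and by -0.49 at E13.5, which is a division of every ratio by 1.56 and 1.41.

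**Figure D3:**
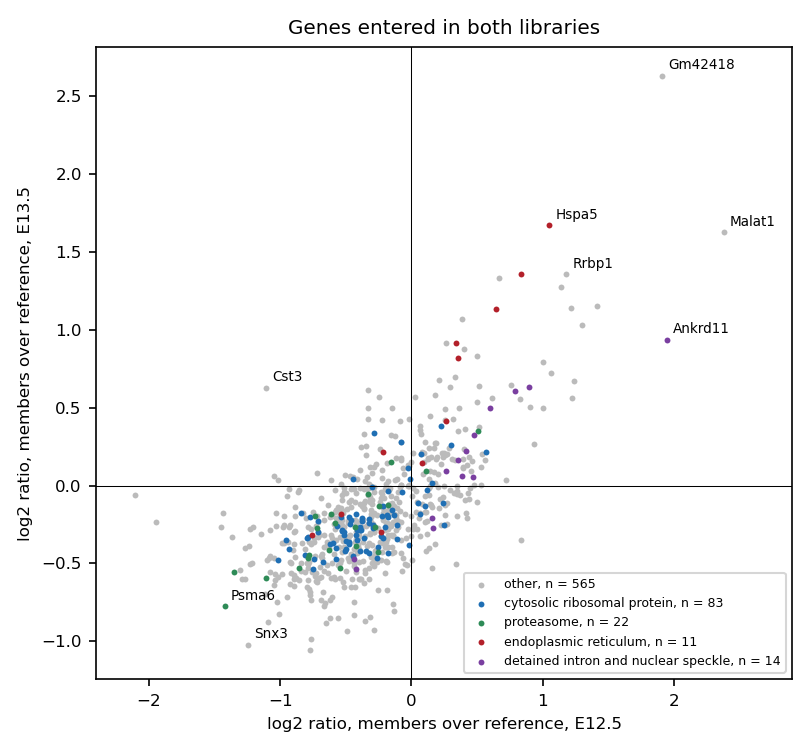
Log2 ratio (high-mitochondrial over reference barcodes) of the 695 genes entered in both libraries, E12.5 on the horizontal and E13.5 on the vertical axis; each point is 1 gene, coloured by list where it belongs to 1 of 4. Malat1, Gm42418, Hspa5, Rrbp1 and Ankrd11 lie at the upper right, proteasome genes such as Psma6 at the lower left, and Cst3 was lower at E12.5 and higher at E13.5.

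Among nuclear RNAs, the long noncoding RNA Malat1, a highly abundant transcript held in nuclear speckles, had the highest ratio of the entered genes at E12.5. It had 710 UMIs, 5054 per 1000000 non-mitochondrial UMIs (CPM), in the high-mitochondrial barcodes at E12.5 against 972 CPM in the reference barcodes, 5.20-fold higher (4.82 to 5.60). At E13.5 it had 1526 UMIs, 4628 CPM against 1499 CPM, 3.09-fold higher (2.93 to 3.25). Counted per barcode, 60.3% of the reference level of Malat1 was kept at E12.5 and 36.7% at E13.5, against 11.6% and 11.9% of all non-mitochondrial UMIs. Single barcodes varied widely: at E12.5 Malat1 took from 0 to 4.34% of a barcode's non-mitochondrial UMIs with a median of 0.38%, against a median of 0.08% in reference barcodes. At E13.5 it took from 0 to 4.85%, with medians of 0.37% and 0.13%. The ranges overlapped, since single reference barcodes reached 4.17% and 3.85%. The difference was smaller against shallow reference barcodes: set against only those no deeper than the 90th percentile of the high-mitochondrial barcodes (123 and 124 barcodes), Malat1 was 2.57-fold higher at E12.5 and 1.86-fold at E13.5. In the 171 and 191 barcodes with little RNA of any kind, the nuclear noncoding list (10 and 11 genes in the tables; Malat1 gave 93.4% and 94.1% of its UMIs in the high-mitochondrial barcodes) summed to 1.56 (1.28 to 1.89) and 1.82 (1.61 to 2.05) times the reference share.

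Kcnq1ot1, a very long nuclear antisense transcript of the imprinted Kcnq1 domain, was too scarce in the reference barcodes to be entered and was picked out for its UMIs and ratio in the high-mitochondrial barcodes, so its values are a description and support nothing. It had 43 UMIs at E12.5, 5.35-fold higher (3.86 to 7.22), and 75 at E13.5, 4.08-fold higher (3.20 to 5.13). Against only the shallow reference barcodes it was at 6.24 and 2.78. Neat1, a noncoding RNA of nuclear paraspeckles, had 2 and 0 UMIs, too few for a ratio. The lincRNA annotations Gm42418, Gm26917 and AY036118 lie next to each other on chromosome 17 (39843013 to 39848788), where RefSeq lists Gm42418 as a synonym of the 18S ribosomal RNA-related pseudogene Rn18s-rs5. Gm42418 was 3.76-fold higher at E12.5 (3.39 to 4.17) and 6.18-fold at E13.5 (5.81 to 6.58). Single barcodes varied widely: its share ranged from 0 to 3.69% at E12.5, with a median of 0.20% against 0.07% in reference barcodes. At E13.5 it ranged from 0 to 4.64%, with medians of 0.26% and 0.048%. There 641 of its UMIs came from the 29 barcodes with a mitochondrial share of 10 to 20%, whose median was 0.097%. Against only the shallow reference barcodes the Gm42418 ratio was 2.51 and 2.73. The excess was shared with the 171 and 191 barcodes with little RNA: the list of ribosomal RNA-overlapping RNAs, most of it Gm42418, summed to 2.94 (2.72 to 3.19) and 4.01 (3.80 to 4.22) in the high-mitochondrial barcodes and to 2.87 (2.54 to 3.23) and 3.05 (2.72 to 3.4) in those. Gm26917 was 2.46-fold higher (2.12 to 2.83) and 2.04-fold (1.81 to 2.29). AY036118 was 1.59-fold higher (1.19 to 2.08) and 2.52-fold (2.10 to 2.99). AY036118 lies within Gm42418 on the opposite strand, and reads may match other ribosomal RNA copies, so these values are uncertain.

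The library chemistry primes on runs of A, and the longest A run inside the annotated transcript is shown for the 3 noncoding RNAs with the highest ratios in this group, to let their lengths be compared. Each stretch gives the longest run (capitals) with 25 bases on each side, 5′ to 3′ along the GENCODE M21 transcript (GRCm38).
Malat1: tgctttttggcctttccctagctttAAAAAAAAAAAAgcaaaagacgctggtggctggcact
Kcnq1ot1: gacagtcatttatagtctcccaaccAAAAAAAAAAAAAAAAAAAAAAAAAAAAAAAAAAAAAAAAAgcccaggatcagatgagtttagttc
Gm42418: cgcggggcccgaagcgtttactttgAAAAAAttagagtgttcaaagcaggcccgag
The run of 12 in Malat1 (chromosome 19, 5795690 to 5802672, minus strand) spans bases 6674 to 6685 of a 6983-base transcript. That of Kcnq1ot1 (chromosome 7, 143203458 to 143296549, minus strand) is 41 long and is 1 of 10 runs of at least 10. Gm42418 (chromosome 17, 39846958 to 39848788, plus strand) has none longer than 6 and was higher in both libraries as well. The part of such runs in the counts was not tested.

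Messenger RNAs whose transcripts are often partly retained in the nucleus or whose proteins sit in nuclear speckles, the sites where splicing factors are stored, were also kept above average. Of 30 such genes in the tables, 14 were entered at E12.5, with 4 higher (28.6%, against 3.86% of all entered genes) and none lower. At E13.5, 25 were entered, with 10 higher (40%, against 8.88%) and none lower. The list's median log2 ratio was 0.40 and 0.50, against -0.31 and -0.12 over all entered genes; with TMM factors it was -0.24 and 0.0051, above all genes under that scaling too, whose medians were -0.95 and -0.61. Ankrd11, a chromatin-bound cofactor, was 3.86-fold higher at E12.5 (3.23 to 4.56) from 136 UMIs and 1.91-fold at E13.5 (1.62 to 2.25) from 147. Rbm39 and Son, which encode splicing proteins and were named after their values were seen, had log2 ratios of 0.90 and 0.79 at E12.5 and of 0.63 and 0.61 at E13.5. The list was not uniform: the splicing factor genes Srsf3 and Srsf7 had log2 ratios of -0.44 and -0.42 at E12.5 and of -0.47 and -0.53 at E13.5.

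Other large nuclear proteins were among the 10 genes with the highest ratios in both libraries. Atrx, a chromatin remodeller, had 102 UMIs and was 2.67-fold higher at E12.5 (2.17 to 3.24), and had 138 UMIs and was 2.22-fold higher at E13.5 (1.87 to 2.63). Cdk12, a kinase of RNA polymerase II elongation, was 2.32-fold higher (1.83 to 2.91) and 2.20-fold (1.90 to 2.54). Of 39 chromatin regulators, 4 were entered at E12.5, 2 of them higher, and 21 at E13.5, 4 higher (19.05%, against 8.88% of all entered genes) and 1 lower. Their medians were 0.56 and 0.24, both below 0 with TMM factors but above the median of all entered genes under that scaling too. The lower gene was Ezh2, the Polycomb methyltransferase, at -1.07 on the log2 scale.

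Summed over barcodes, the ER genes were the second class above average, from a minority of barcodes at E12.5 and from the typical barcode at E13.5. The median high-mitochondrial barcode had 0.721% of its non-mitochondrial UMIs from the 37 ER genes at E12.5 against 0.720% in reference barcodes, with a 90th percentile of 2.34% against 0.899%. At E13.5 the medians were 1.01% and 0.622%, and the 90th percentiles 2.45% and 0.805%. Of 37 genes for ER chaperones, translocation and glycosylation, 11 were entered at E12.5, with 3 higher (27.3%, against 3.86% of all entered genes) and 1 lower. At E13.5, 25 were entered, with 13 higher (52%, against 8.88%) and none lower. Their median log2 ratio was 0.26 in the first library and 0.82 in the second, which is 0.58 and 0.93 above the median of all entered genes. With TMM factors the list median was -0.38 and 0.32, again above all genes. Summed, the list was 1.28 times its reference share at E12.5 (1.21 to 1.36) and 1.67 times at E13.5 (1.61 to 1.73). Against the shallow reference barcodes alone, where the Malat1 ratio shrank, the list median was 0.30 and 0.60. In the 171 and 191 barcodes with little RNA the summed ER ratio was 0.95 (0.86 to 1.04) and 0.64 (0.58 to 0.71). ER and Malat1 shares were also set side by side in single barcodes. Of 49 and 101 high-mitochondrial barcodes with 500 or more non-mitochondrial UMIs, 13 and 42 passed the reference's 99th percentile of the ER share. For Malat1 24 and 27 passed it, with 3 and 9 past both and 15 and 41 past neither. The overlap of unrelated shares was not computed, and shallow barcodes pass such cuts more easily by counting error. These counts therefore show no separation of the 2 shares. The 2 shares had rank correlations of -0.32 and -0.16, against -0.13 and -0.22 in reference barcodes.

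Hspa5 (BiP; chromosome 2, 34771970 to 34777547), the main ER-lumen chaperone, had 119 UMIs at E12.5, 847 CPM against 409 CPM, 2.07-fold higher (1.72 to 2.48) in the sums. These UMIs came from 29 of the 55 barcodes, and the median barcode had 0.017% against 0.038% in reference barcodes. At a median of 1838 non-mitochondrial UMIs, too few Hspa5 UMIs can be seen per barcode for this median to give a direction. The still shallower barcodes with little RNA had a median of 0. At E13.5 it had 344 UMIs, 1043 CPM against 328 CPM, 3.18-fold higher (2.85 to 3.54), from 91 of the 131 barcodes, and the median barcode had 0.074% against 0.030%. Against only the shallow reference barcodes it was at 2.24 and 3.61. Hsp90b1 (Grp94), another lumenal chaperone, was 1.57-fold higher (1.34 to 1.82) and 2.19-fold (2.0 to 2.4). Pdia6, a disulfide isomerase, was 1.79-fold higher (1.38 to 2.27) and 2.56-fold (2.15 to 3.03). Rrbp1, the ribosome receptor of the rough ER, was 2.26-fold higher (1.83 to 2.77) and 2.56-fold (2.24 to 2.9). Ktn1 (kinectin), an ER membrane anchor of motor proteins, was 2.21-fold higher (1.72 to 2.79) and 2.42-fold (2.12 to 2.74). Vcp, the ATPase that extracts proteins from the ER for degradation and is itself cytosolic, was 2.0-fold higher (1.65 to 2.41) and 1.73-fold (1.5 to 1.98). Rpn1, a subunit of the oligosaccharyltransferase, was entered only at E13.5, at 3.26-fold (2.68 to 3.94). Short genes of the same organelle did not follow: Sec61b, of the translocation channel, had log2 ratios of -0.76 and -0.32, Sec61g -0.23 and -0.30, and Ssr4 -0.45 at E13.5.

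**Figure D4:**
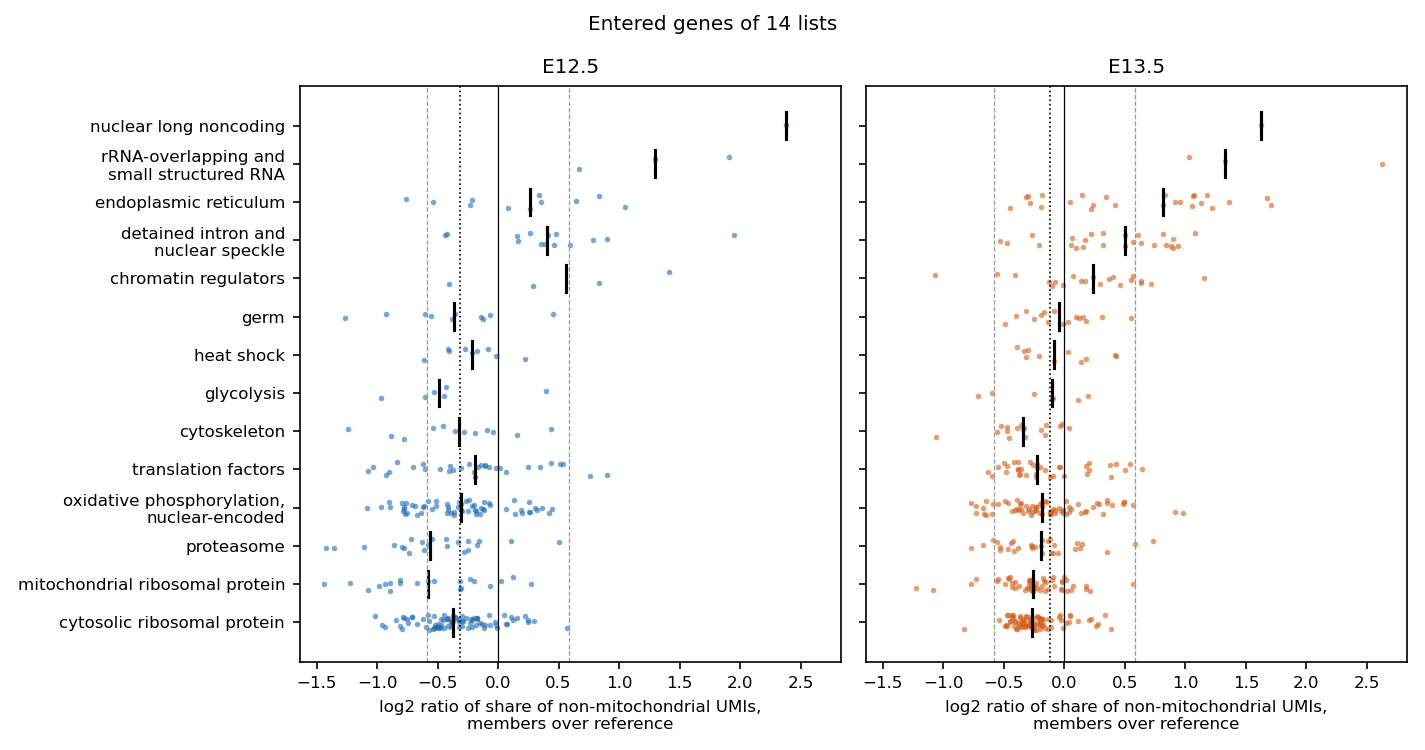
Log2 ratio (high-mitochondrial over reference barcodes) of each entered gene in 14 lists, at E12.5 (left) and E13.5 (right); each point is 1 gene, thick bars are list medians, the dotted line is the median of all entered genes and dashed lines mark 1.5-fold. The medians of the 5 uppermost lists lie above 0 in both libraries. TMM factors shift all points and the dotted line by -0.64 and -0.49. This puts the ER, speckle and chromatin medians at E12.5 and the chromatin median at E13.5 below 0 but still above the dotted line.

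Cytosolic classes had medians below 0, but several of them were no lower than the average gene. Against the median of all entered genes, proteasome genes stood at -0.25 at E12.5 and -0.08 at E13.5, glycolysis at -0.18 and 0.02, ribosomal proteins at -0.06 and -0.15, cytoskeleton at -0.01 and -0.22, heat shock at 0.09 and 0.03, and translation factors at 0.12 and -0.11. Cytosolic ribosomal protein genes, translated on free ribosomes, took 25.9% of the high-mitochondrial barcodes' non-mitochondrial UMIs at E12.5 against 32.4% in the reference, a summed ratio of 0.80 (0.79 to 0.81). At E13.5 they took 28.4% against 33.6%, a ratio of 0.85 (0.84 to 0.85). Singly, 15 of 83 entered were lower at E12.5 (18.1%, against 23.9% of all entered genes) and 1 of 85 at E13.5 (1.18%, against 8.58%), and none was higher in either library; the medians were -0.38 and -0.27. The median barcode stood further apart, with 21% against 32.1% at E12.5 and 20.2% against 33.3% at E13.5.

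Proteasome genes, for the protease that degrades cytosolic and nuclear proteins, had a median log2 ratio of -0.56 at E12.5. There 10 of 22 entered were lower (45.45%, against 23.9% of all entered genes) and none higher. At E13.5 the proteasome median was -0.20, with 3 of 31 lower (9.68%, near the 8.58% of all entered genes) and 1 higher. Psma6, of its core ring, had 25 UMIs and 178 CPM at E12.5 against 477 CPM, a ratio of 0.37 (0.24 to 0.55), and 0.58 (0.46 to 0.73) at E13.5. The larger regulatory subunit Psmd2, named after its values were seen, had log2 ratios of 0.50 and 0.35. With TMM factors these are below 0 but still above the median of all entered genes. Nuclear genes of oxidative phosphorylation, whose proteins are imported into the same mitochondria whose RNA was kept, were near the average of all genes. Their median was -0.31 at E12.5, 0.01 from that of all entered genes, with 17 of 61 lower (27.9%, against 23.9%) and none higher. At E13.5 it was -0.19, with 9 of 72 lower (against 8.58% of all entered genes) and 2 higher. Ndufv2, of complex I, had ratios of 0.59 (0.36 to 0.91) and 0.60 (0.44 to 0.81). Sdha, the large subunit of succinate dehydrogenase, and Ndufb9 were the 2 higher at E13.5, with log2 ratios of 0.98 and 0.91. Mitochondrial ribosomal protein genes had medians of -0.58 and -0.26, with 10 of 21 (47.6%) and 4 of 56 (7.14%) lower. Over all entered genes these shares were 23.9% and 8.58%.

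Glycolysis genes, for cytosolic enzymes, had medians of -0.49 over 6 entered genes at E12.5 and -0.10 over 7 at E13.5. In each library 2 were lower (33.3% and 28.6%, against 23.9% and 8.58% of all entered genes) and none higher. Gapdh, a glycolytic enzyme, was 0.66 times its reference share (0.54 to 0.79) from 115 UMIs and 0.61 times (0.53 to 0.70) from 189. Eef1a1, the translation elongation factor, stayed nearer to the average, at 0.93 (0.86 to 0.99) and 0.85 (0.81 to 0.89). Actb, cytoplasmic actin, was at 1.12 (0.95 to 1.30) at E12.5, an interval that holds 1, and at 0.69 (0.61 to 0.79) at E13.5. Among the 10 lowest genes in both libraries were Snx3, an endosomal sorting protein, at 0.42 (0.24 to 0.70) and 0.49 (0.36 to 0.66), and Stmn1, a cytosolic tubulin-binding protein, at 0.58 (0.44 to 0.76) and 0.48 (0.40 to 0.57). Prdx1, a cytosolic peroxidase, was at 0.52 (0.41 to 0.65) and 0.61 (0.54 to 0.69). The others of the 10 were Med28, Birc5, Sept7, Psma6, Ndufv2, Ube2n and Cetn3, with log2 ratios from -1.42 to -0.70.

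RNAs with short half-lives, which disappear soon after transcription stops, gave no common direction. Immediate early genes, the transcription factors and feedback regulators induced within minutes of a stimulus, were too scarce for single-gene ratios: 0 of 28 were entered at E12.5, and at E13.5 only Jund, at -0.19 on the log2 scale. Summed, the 28 genes had 157 UMIs at E12.5, 1.72 times their reference share (1.46 to 2.01), and 231 at E13.5, 1.18 times (1.04 to 1.35). Jund alone gave 30.6% and 22.9% of these UMIs. Fos had 6 and 6 UMIs, Jun 5 and 6, and Egr1 6 and 11. Other short-lived regulators, among them Odc1 and the cyclin gene Ccnl1, summed to 1.14 (0.99 to 1.30) and 1.27 (1.18 to 1.38) times their reference share. The division by TMM factors takes these sums, and the immediate early sum at E13.5, below 1. It lowers the ratios of all genes by the same factor. Clustered histone genes, whose messages lack a poly(A) tail and last only through S phase, were low from few UMIs: 47 at E12.5, a summed ratio of 0.46 (0.33 to 0.61), and 84 at E13.5, 0.59 (0.47 to 0.73). They were also low in the barcodes with little RNA and a low mitochondrial share, at 0.39 (0.23 to 0.61) and 0.61 (0.39 to 0.90).

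Stress and death genes of nuclear origin gave no common direction. Heat shock genes, cytosolic chaperones for the most part, had medians of -0.22 over 9 and -0.09 over 11 entered genes. Targets of the integrated stress response summed to 1.05 (0.85 to 1.29) at E12.5 and 1.54 (1.37 to 1.73) at E13.5, where both entered genes, Slc3a2 and Atf4, were higher, at 1.82-fold (1.40 to 2.32) and 1.51-fold (1.13 to 1.98). Targets of p53 summed to 1.05 (0.90 to 1.22) and 0.98 (0.89 to 1.08). Pro-apoptotic genes summed to 0.81 (0.69 to 0.94) and 0.89 (0.81 to 0.99). Bax, the pore-forming effector of the mitochondrial death pathway, was the most abundant of them, at 0.66 (0.49 to 0.88) and 0.74 (0.62 to 0.87).

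The summed composition differed between bands of mitochondrial share. The barcodes fell into bands of 10 to 20% (16 and 29 barcodes), 20 to 50% (29 and 38) and 50 to 100% (10 and 64). The lowest band held 49.3% and 64.5% of all their non-mitochondrial UMIs, so the summed ratios above lean on it. Per barcode, non-mitochondrial UMIs were kept at 19.6%, 10.1% and 3.14% of the reference mean along the bands at E12.5, and at 34.7%, 8.52% and 3.60% at E13.5. Mitochondrial UMIs were at 73.3%, 125% and 175%, and at 101%, 93.2% and 149%. Ribosomal protein genes had summed ratios of 0.89, 0.73 and 0.55 along the bands at E12.5 and of 0.98, 0.64 and 0.55 at E13.5. The counting intervals of neighbouring bands did not overlap in either library, but they leave out the spread between barcodes. The median barcode's ribosomal protein share was 27.9%, 16.7% and 20.1% along the bands at E12.5, so it was lowest in the middle band. At E13.5 it was 33.0%, 19.9% and 18.7%. The ER list was not above 1 in the lowest band at E12.5, at 0.85 (0.78 to 0.94), and was at 1.71 and 1.62 in the others; at E13.5 it was 1.37, 2.05 and 2.45. The nuclear noncoding list was at 5.33, 4.99 and 5.24 at E12.5, with overlapping intervals, and at 2.22, 4.01 and 5.85 at E13.5.

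**Figure D5:**
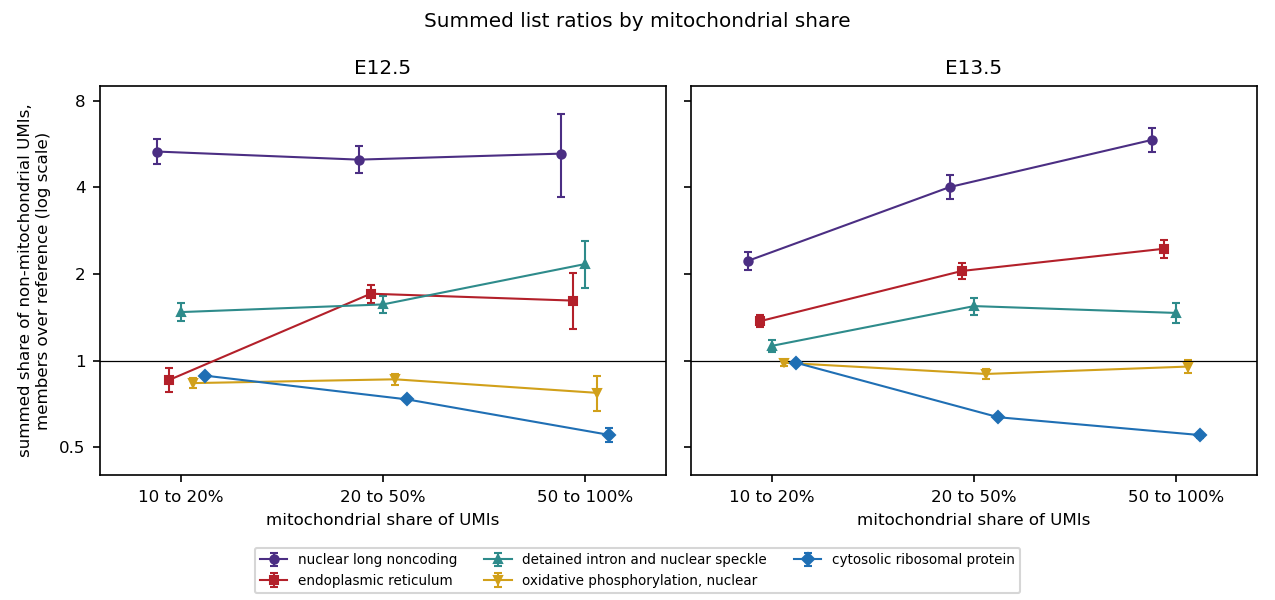
Summed share of 5 gene lists in high-mitochondrial over reference barcodes (log scale) in 3 bands of mitochondrial share, at E12.5 (left) and E13.5 (right); points are ratios of summed UMIs and bars are 95% counting intervals. Ribosomal protein genes reached 0.55 in the highest band of both libraries, where the nuclear noncoding list stood at 5.24 and 5.85.

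Over single barcodes, the rank correlation with the mitochondrial share was -0.53 and -0.56 for the ribosomal protein share, but only 0.27 and 0.14 for the ER share, 0.23 and 0.17 for Malat1, and 0.03 and 0.02 for Hspa5; these are descriptions over 55 and 131 barcodes that share a library and differ in depth. In the sums, Hspa5 was at 1.03 (0.69 to 1.47), 3.12 (2.48 to 3.88) and 2.82 (1.22 to 5.57) along the bands at E12.5 and at 1.72 (1.43 to 2.06), 5.61 (4.67 to 6.69) and 6.14 (4.98 to 7.49) at E13.5. Malat1 per barcode was at 106%, 50.4% and 14.9% of the reference mean at E12.5 and at 77.2%, 33.8% and 20.2% at E13.5. Gapdh per barcode was at 16.4%, 4.78% and 1.83%, and at 24.4%, 3.70% and 1.57%. Stmn1, at 39, 16 and 0 UMIs along the bands at E12.5, was at 20.4%, 2.54% and 0.94% per barcode at E13.5.

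The sort was for germ cells, and the markers were checked. At least 3 of 11 germ cell markers were detected in 39 of 55 high-mitochondrial barcodes at E12.5 and in 90 of 131 at E13.5, against 99.2% and 98.9% of the much deeper reference barcodes and 32.2% and 38.7% of the barcodes with little RNA. Free RNA can give such UMIs, and its share was not measured, so detection alone does not show a barcode's identity. The 11 markers took 0.558% of non-mitochondrial UMIs against 0.751% at E12.5 and 0.716% against 0.803% at E13.5. Pou5f1 was at 0.78 (0.59 to 1.01) and 1.02 (0.89 to 1.15) times its reference share, and Dppa3 (Stella), an abundant germ cell transcript, at 0.53 (0.44 to 0.62) and 0.84 (0.78 to 0.90). Macrophage and mural markers were at 0 in both libraries, which allows up to 26.3 CPM and 11.2 CPM by the upper exact limit. Their reference levels were below these limits. Some markers were missing from the count tables: only 2 of 7 macrophage markers were listed at E13.5 and 1 of 5 fetal Leydig markers at E12.5. Sertoli markers summed to 4 UMIs at E12.5, where Sox9 and Amh were at 0, and to 18 at E13.5. Fetal Leydig markers summed to 1 and 3 UMIs, surface epithelial markers to 1 and 4, and interstitial markers to 6, all in 1 barcode, and 1. Endothelial markers summed to 36 and 27 UMIs, of which Pecam1, which germ cells also express, gave 97.2% and 66.7%; Cdh5 and Kdr were at 0. Of 8 erythroid markers only 3, all haemoglobin genes, were listed at E12.5. They were at 0 there, against only 0.29 CPM in the reference, so little can be read from this. At E13.5 all 8 were listed and stood at 78.8 CPM against 913 CPM in the reference. Limiting both sets to barcodes with 3 or more germ markers and under 0.5% somatic markers left Malat1 at 3.71-fold and 2.72-fold and the ER median at 0.18 and 0.76.

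Longer genes were kept above average. Of the entered genes, 98.0% and 97.7% matched a GENCODE M21 gene by name. Genes were split into 4 groups by coding length. At E12.5 the longest (1146 bases or more) had a median log2 ratio of 0.08, with 22 of 168 genes higher and 8 lower. The shortest were at -0.37, with none of 170 higher and 41 lower. Over all entered genes 3.86% were higher and 23.9% lower, so the lower count of the shortest group was near that share. At E13.5 the longest were at 0.26, with 94 of 398 higher and 4 lower. The shortest were at -0.27, with 2 of 398 higher and 50 lower. Over all entered genes these shares were 8.88% and 8.58%. Without ribosomal protein genes the longest group had medians of 0.10 and 0.24 and the shortest -0.42 and -0.28. Other measures of length gave smaller differences. By transcript length the longest group of all entered genes had a median of -0.08 at E12.5, with 23 of 171 higher and 23 lower. At E13.5 it was 0.17, with 82 of 402 higher and 16 lower. By genomic span the longest group was at -0.14, with 16 of 171 higher and 34 lower, and at 0.14, with 67 of 402 higher and 22 lower. The shortest groups were at -0.42 and -0.27 by transcript length and at -0.39 and -0.23 by span. The lists differ in length as well: at E13.5 the median transcript was 6376 bases for chromatin regulators, 3373 for the speckle list and 2120 for the ER list, against 1540 for the proteasome, 865 for nuclear oxidative phosphorylation and 860 for ribosomal proteins. Localization and length cannot be told apart from these lists.

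At equal depth the high-mitochondrial barcodes were no poorer in genes. With each barcode thinned to 300 non-mitochondrial UMIs, the median was 258 genes against 238 in reference barcodes at E12.5 and 255.5 against 235 at E13.5, after leaving out 3 and 13 high-mitochondrial barcodes that were shallower. Without thinning the medians were 1210 against 4496 and 792 against 4323.5. Barcodes with under 500 genes and a low mitochondrial share stood at 240 and 233 after thinning, leaving out 72 and 59.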

How the data were processed

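Per the labels' protocols, Oct4GFP+ cells were sorted and libraries were made with the 10x v2 chemistry. The deposited values are whole-number UMI counts per gene and barcode, 1 table per stage; the authors used Cell Ranger and the mm10 (GRCm38) build, per the submitters' processing notes, and its version and annotation are not given in the sources used here. Every deposited barcode had at least 201 genes. The 2 tables were analysed separately with numpy 2.4.6, scipy 1.17.1 and pandas 2.3.3. Counts were summed over high-mitochondrial and reference barcodes; ratios compare shares of non-mitochondrial UMIs, with 95% Clopper-Pearson intervals that cover counting error only. Ratios need at least 3 UMIs in each set. Precision follows the 140476 and 329754 UMIs summed. Genes entered at 30 expected UMIs; the fold used was 1.5. Called by name were the 10 genes with the highest and the 10 with the lowest ratio (ranked by the library nearer to 1, without predicted, ribosomal protein and haemoglobin genes), the ends and most abundant member of each list, and set housekeeping and germ genes; Kcnq1ot1, Gm26917, Rpn1, Sec61g and Cst3, and those marked so in the text, were named after their values were seen. Of the 10 highest, 1 is not reported here. No doublet caller was run. The members and lists were chosen with earlier results of these data known. No test was run, because each stage is 1 library. The ratio calculation was tested on simulated data. Alternatives changed weighting, reference depth, germ identity, mitochondrial cut, gene minimum, denominator and TMM scaling (edgeR 4.0.16). Sequences and lengths come from GENCODE M21.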

Additional observations from a re-analysis of the deposited data

Results flagged for a closer look

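Cst3, which encodes the secreted protease inhibitor cystatin C, was the 1 gene of 695 entered in both libraries that passed 1.5-fold in opposite directions: its log2 ratio was -1.11 at E12.5, from 15 UMIs, and 0.63 at E13.5, from 104 UMIs in 47 barcodes. The ratios were 0.46 (0.26 to 0.76) and 1.55 (1.26 to 1.87). The difference between the stages was not tested, since each is 1 library.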

How the results depend on the processing

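Counts of genes, ratios of named genes and some list medians were recomputed under 13 alternatives. The lists were nuclear noncoding, ribosomal protein, ER, speckle, glycolysis and immediate early. The mitochondrial composition, summed list ratios, bands, length groups, equal-depth gene numbers and other list medians were not recomputed in this way. Counts of genes moved most. The main values were 27 higher and 167 lower at E12.5 and 146 and 141 at E13.5. They became 54, 284, 282 and 435 with every barcode weighted equally; 6, 538, 33 and 877 with TMM factors; 315, 373, 799 and 328 at 10 expected UMIs; 2, 50, 16 and 38 at 100; 3232, 574, 3593 and 466 with no minimum but 3 UMIs in each set, a filter that lets genes in by their level in the high-mitochondrial barcodes; and 0, 5, 1 and 52 with only barcodes under 500 genes, where few genes enter. With a mitochondrial share of 20% or more the E13.5 counts were 55 and 233, and without ribosomal protein and the 50 most abundant genes the lower counts were 257 and 267. The nuclear noncoding median, which is Malat1 alone in the main setting (2.38 and 1.63), was above 0 in each of these settings: 1.74 and 1.13 with TMM factors, 2.71 and 2.07 with equal weights, 1.89 and 1.45 in germ-like barcodes, 1.36 and 0.90 against shallow reference barcodes, 2.23 and 1.5 without abundant genes, and 2.51 and 1.81 without the 3 deepest barcodes. At E13.5 alone it was 2.22 at 20% or more, 1.74 against a stricter reference of 2000 genes and under 5%, and 1.83 at 10 expected UMIs and with no minimum. The ribosomal protein median (-0.38 and -0.27) was -1.02 and -0.76 with TMM factors, -0.67 and -0.70 with equal weights, -0.98 and -0.86 under 500 genes, -0.57 and -0.93 at 20% or more, and -0.52 at E12.5 without the 3 deepest barcodes. The ER median at E12.5 was -0.38 with TMM factors, 0.65 at 100 expected UMIs and 0.77 at 20% or more, and at E13.5 it was 0.32 with TMM factors. The speckle median was -0.24 and 0.0051 with TMM factors, 0.73 at E13.5 with equal weights and 0.81 at E12.5 with no minimum. The glycolysis median was -1.13 and -0.60 with TMM factors and 0.080 and 0.16 with no minimum. The immediate early median at E13.5, Jund alone in the main setting, was -0.68 with TMM factors, 0.25 at 10 expected UMIs and 0.50 with no minimum. Of 593 recomputed values of named genes past 1.5-fold, 589 kept their sign. This count overstates stability. The settings of 10 and 100 expected UMIs and of no minimum leave a gene's ratio unchanged, so their values could not change sign. Many of these genes were also picked as the extremes of the same ratios. The 4 exceptions, all at E13.5, were Ndufv2 with equal weights (0.031) and, under 500 genes, Ndufv2 (0.53), Sept7 (0.17) and Cdk12 (-0.42). The causes were not tested. No paired analysis was possible because each stage is 1 library. No median could be given for the ribosomal protein list where its genes were left out, nor for lists of which no gene entered. Genes entered at reference levels above 214 CPM in the first library and 91.0 CPM in the second; ratios given for scarcer genes rest on few UMIs.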

Other observations

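Some further groups were put together after the values were seen and are given as values only; most of them encode membrane, secreted or lysosomal proteins. Plasma membrane and organelle solute carriers (without the mitochondrial Slc25 family) summed to 1.97 (1.78 to 2.16) times their reference share at E12.5 and 2.06 (1.94 to 2.19) at E13.5, whereas the Slc25 carriers of the mitochondrial inner membrane summed to 0.75 (0.67 to 0.83) and 0.89 (0.83 to 0.95). Basement membrane and matrix genes summed to 2.22 (1.82 to 2.68) and 3.64 (3.24 to 4.08). Fn1 (fibronectin) was 3.31-fold higher at E13.5 (2.74 to 3.96). Lysosome and endosome genes summed to 1.73 (1.54 to 1.95) and 2.26 (2.11 to 2.42), with Grn (progranulin) 3.13-fold higher at E13.5 (2.54 to 3.82).

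The G2/M list had a median log2 ratio of -0.01 over 14 entered genes at E12.5 and -0.35 over 23 at E13.5. At E13.5 its members Cenpf and Mki67 were at 1.20 (1.07 to 1.34) and 1.56 (1.17 to 2.05), and Birc5 and Ube2c (the last named after its values were seen) at -0.99 and -0.92 on the log2 scale. With TMM factors Cenpf is below 1 but above the median of all entered genes. The S phase list had medians of -0.22 and -0.09.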
